A study of Homo sapiens with 12 samples.

Results

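SZ95 sebocytes, an immortalised human cell line from the sebaceous gland, were compared after OLR1 siRNA and UV-PAPC together and after scramble siRNA with no treatment. UV-PAPC is PAPC, a phosphatidylcholine carrying arachidonic acid, that was oxidised with ultraviolet light. The comparison was chosen by its sample labels and took 6 of the 12 arrays, 3 with OLR1 siRNA and UV-PAPC (the combined group) and 3 with scramble siRNA, untreated (the baseline). The other 6 arrays, 3 with scramble siRNA and UV-PAPC (UV-PAPC alone) and 3 with OLR1 siRNA, untreated (OLR1 siRNA alone), served to divide the combined difference into its parts. All 4 groups were grown in Sebomed medium and transfected by lipofection, so the baseline carries the transfection and a scramble siRNA as well. UV-PAPC was given at 25 µg/ml, 24 h after transfection, and how long it was left on the cells is not stated in the labels. The labels name no vehicle, unoxidised PAPC or untransfected cells. Nothing in the labels says that the 3 arrays of a group came from separate cultures, so the p-values reflect the spread among these arrays, which could be technical in part or in full.

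Oxidised phospholipids are electrophilic lipids that arise where membranes or lipoproteins are oxidised. They are known to engage the KEAP1-NRF2 pathway, which induces genes of glutathione synthesis and haem breakdown, and HSF1, which induces chaperones when proteins are damaged. LOX-1, the product of OLR1, is a cell surface receptor that takes up oxidised lipoproteins and passes signals to MAP kinases and NF-kB. MAP kinase signals are ended in part by dual-specificity phosphatases such as DUSP10, and mitosis genes are switched on together late in the cell cycle through a shared promoter element.

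Values are log2 signals, 1 probe set per gene, for 18417 genes. Array medians lay between 5.73 and 5.83, and Pearson's r across genes (genes are no replicates) ran from 0.996 to 0.998 for the 12 pairs of arrays within a group and from 0.990 to 0.993 for the 9 pairs between the 2 compared groups. Precision is limited by the number of arrays, and signals of different genes were read by different probes and are not compared with each other. Of 27 measured sebocyte genes, KRT7 and MUC1 among them, the array means lay between 6.94 and 6.96 at baseline and between 6.79 and 6.82 in the combined group. The array means of fibroblast markers were 5.48 to 5.52 and 5.46 to 5.51 in the same 2 groups, with 0 of 20 genes past the threshold in limma and 2 at an unadjusted p under 0.05. Leukocyte markers had 0 of 11 past it (0 unadjusted). Melanocyte and endothelial markers had 1 gene each of 8 and 10, MITF at 0.20 and CDH5 at 0.42, both higher. Of all genes tested, 16.7% passed it. MITF lost its call in 10 of the alternative settings. The part of these markers in the results was not tested.

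The targeted gene, OLR1, was lower in the combined group. Its log2 signal was 6.18, 5.56 and 5.35 at baseline, 6.19, 5.49 and 5.74 with UV-PAPC alone, 4.66, 4.38 and 4.48 with OLR1 siRNA alone and 4.47, 4.33 and 4.41 in the combined group. Every OLR1 siRNA array lay below every scramble array, and under either siRNA the values with and without UV-PAPC overlapped. The combined difference was -1.29 (SE 0.18, 2.45-fold lower, limma adjusted p = 0.000116).

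Across the genes tested, 3073 passed a Benjamini-Hochberg adjusted p of 0.05 in limma between the combined group and the baseline (16.7%), 1581 higher (8.58%) and 1492 lower (8.10%). Log2 fold changes of the called genes ran from -1.91 for DUSP10 to 3.70 for the chaperone gene HSPA6. Without the first array of the combined group the higher calls fell to 1028. A fold change of at least 2 in either direction was reached by 37 higher (0.201%) and 44 lower genes (0.239%). The 3 arrays of one group all lay on one side of the 3 of the other for 6112 genes (33.2%), 16.5% higher and 16.7% lower.

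The combined log2 difference of a gene equals the sum of 2 averages from the same 12 arrays. The first is the average UV-PAPC effect, the mean of its difference from untreated cells under either siRNA, and the second is the average OLR1 siRNA effect, the mean of its difference from scramble with and without the lipid. The first passed the threshold for 2574 genes (14.0%), 5.95% of all genes higher and 8.03% lower, and the second for 4242 (23.0%), 12.9% higher and 10.2% lower. Of the 3073 genes called in the combined comparison, 832 had the UV-PAPC average past the threshold and not the other, 1426 the OLR1 siRNA average and not the other, and 530 both. The remaining 285 (122 higher, 163 lower) passed in neither average and differed by a median of 0.27 and at most 0.48 in size. Both averages were past the threshold in one direction for 412 genes (2.24%), which are called adding genes here: 194 with both higher (1.05%) and 218 with both lower (1.18%). They were past it in opposite directions for 673 genes (3.65%), which are called cancelling genes: 197 with UV-PAPC higher (1.07%) and 476 with UV-PAPC lower (2.58%). With both single effects taken against the baseline arrays instead of averaged, 185 genes added and 199 cancelled. These names describe signs and sizes, and since the averages define the classes, the direction of an adding gene in the combined comparison follows from the choice.

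**Figure D1:**
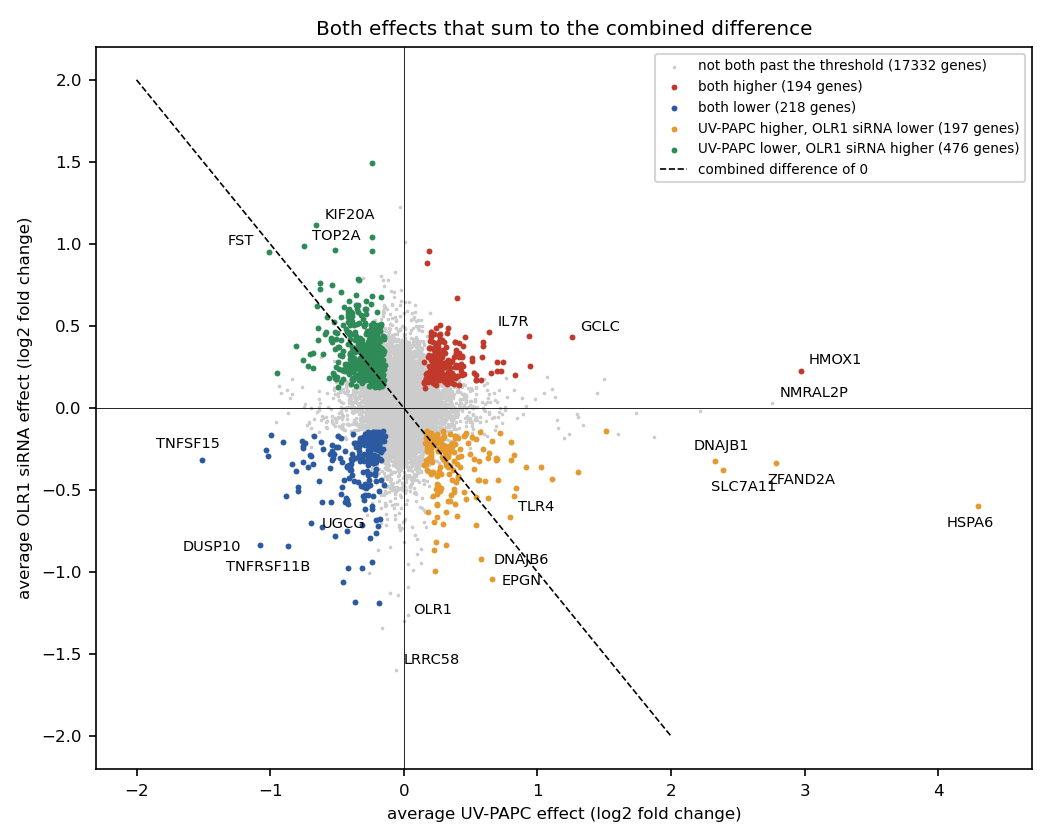
Each point is 1 of 18417 genes, with the average UV-PAPC effect on the horizontal axis and the average OLR1 siRNA effect on the vertical axis, both as log2 fold changes. Colours mark the 4 classes in which both averages passed an adjusted p of 0.05, and on the dashed line the combined difference is 0. DUSP10 and TNFRSF11B lie far out in the lower left, where both effects lower a gene, while FST lies close to the dashed line and HSPA6 and HMOX1 far to the right of it.

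DUSP10, an adding gene with lower signal, encodes a phosphatase that inactivates the p38 and JNK MAP kinases. Its log2 signal was 9.66, 9.61 and 9.67 at baseline, 8.48, 8.61 and 8.30 with UV-PAPC alone, 8.67, 8.84 and 8.61 with OLR1 siRNA alone, and 7.74, 7.82 and 7.65 in the combined group. The 4 groups formed 3 levels: the arrays of either single treatment lay below the baseline, their ranges met at 8.61, and all 3 combined arrays lay below the 9 others. DUSP10 had the lowest combined log2 fold change of all genes called, at -1.91 (SE 0.085, 3.75-fold lower, limma adjusted p = 8.08e-10), made up of an average UV-PAPC effect of -1.08 and an average OLR1 siRNA effect of -0.83. The joint fall was smaller than the sum of the 2 single effects by 0.21, with a 95% interval from -0.04 to 0.47 that includes 0.

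TNFRSF11B, which encodes the decoy receptor osteoprotegerin, had the same layout. Its signal was 8.91, 8.79 and 8.96 at baseline, 7.71, 7.76 and 7.94 with UV-PAPC alone, 7.92, 7.71 and 7.84 with OLR1 siRNA alone and 7.19, 6.93 and 7.43 in the combined group. Both single treatments gave overlapping values below the baseline, and the combined arrays lay below all of them. The combined fold change was -1.71 (SE 0.11, limma adjusted p = 2.34e-08). UGCG, the enzyme that makes glucosylceramide, fell by 1.40 from 9.42, 9.17 and 9.17 at baseline to 7.88, 7.72 and 7.97, and PHLDA1, an immediate early gene, fell by 1.34 from 9.03, 8.92 and 9.07 to 7.62, 7.67 and 7.70. IL1B, the inflammatory cytokine interleukin-1 beta, was 2.28-fold lower, going from 7.07, 6.94 and 6.82 to 5.85, 5.67 and 5.76. In none of these genes did the compared groups overlap, which also held for 33.2% of all genes. They were named for large effects, and the lowest genes, TNFRSF11B and UGCG among them, were drawn from genes with separate groups. The separation therefore follows in part from the choice.

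The adding genes with higher signal were led by the interleukin-7 receptor gene IL7R, the heat shock pseudogene HSP90AA6P, OSER1, GCLC and DOCK10. GCLC, the catalytic subunit of the enzyme that limits glutathione synthesis, gave 7.27, 7.16 and 7.39 at baseline, 8.36, 8.62 and 8.30 with UV-PAPC alone, 7.50, 7.73 and 7.56 with OLR1 siRNA alone and 9.0, 8.96 and 8.93 in the combined group. The OLR1 siRNA step was small next to the lipid step and was present both without and with the lipid, with no overlap between groups. The combined fold change was 1.69 (SE 0.090, 3.22-fold higher, limma adjusted p = 4.37e-09), of which 1.26 was the UV-PAPC average and 0.43 the OLR1 siRNA average. IL7R rose by 1.10, from 8.02, 7.98 and 8.0 to 9.11, 9.0 and 9.20. DOCK10 rose by 1.07 from 8.74, 8.63 and 8.67 to 9.78, 9.77 and 9.71, and here the OLR1 siRNA average (0.67) was the larger part. OSER1 rose by 0.89. HSP90AA6P rose by 1.37, but its transcript is close in sequence to the HSP90AA1 family, so its signal is uncertain.

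**Figure D2:**
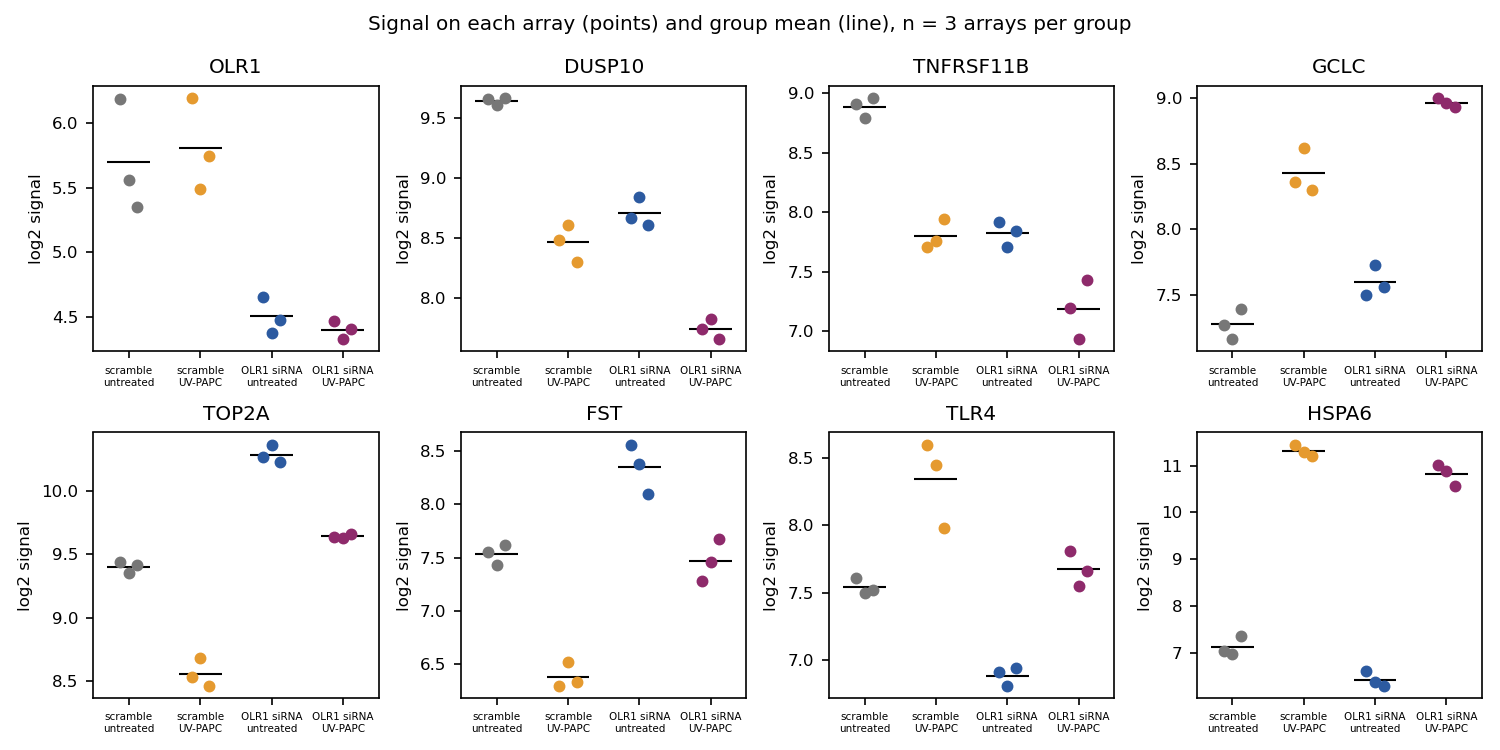
Log2 signal of 8 genes on each of the 12 arrays (points) with the group mean (line), n = 3 arrays per group. DUSP10, TNFRSF11B and GCLC step the same way with each treatment, TOP2A, FST and TLR4 step one way with UV-PAPC and the other with OLR1 siRNA, and the OLR1 panel shows both OLR1 siRNA groups below 4.7.

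Among the genes at both extremes, several had 1 of the 2 averages as the far larger part. HMOX1, which breaks down haem, rose by 3.20 (9.17-fold), from 9.42, 9.54 and 9.62 to 12.74, 12.70 and 12.73, with a UV-PAPC average of 2.97 and an OLR1 siRNA average of 0.23 that also passed, which makes it an adding gene. Taken singly, its OLR1 siRNA difference did not pass without the lipid (limma adjusted p = 0.13) or with it (limma adjusted p = 0.214). NMRAL2P, a transcribed pseudogene known as an NRF2 target, rose by 2.78 with an OLR1 siRNA average of 0.03 that did not pass. ARRDC3, an alpha-arrestin, rose by 1.71, and the chaperone partners DNAJB4 and DNAJA4 rose by 2.20 and 1.70, with OLR1 siRNA averages of -0.03, -0.02 and -0.18 that did not pass the threshold. At the other end LRRC58 fell by 1.66 with a UV-PAPC average of -0.06: its signal was 8.82, 8.86 and 8.77 at baseline, 8.74, 8.79 and 8.57 with UV-PAPC alone, 7.08, 7.19 and 7.22 with OLR1 siRNA alone and 7.24, 7.16 and 7.09 in the combined group. ATP6V0E2, a subunit of the proton pump of acidic organelles, fell by 1.5 with a UV-PAPC average of -0.16. The UV-PAPC averages of LRRC58 and ATP6V0E2 did not pass the threshold.

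The remaining lowest genes were adding genes of unequal parts. TNFSF15, the TNF-like cytokine TL1A, fell by 1.83 with averages of -1.51 for UV-PAPC and -0.32 for OLR1 siRNA. ITGB6, an epithelial integrin subunit, fell by 1.55 from 10.02, 9.96 and 9.93 to 8.47, 8.28 and 8.52, with averages of -0.37 and -1.18 in the same order. KIF3A, a motor subunit of the primary cilium, fell by 1.39 with averages of -0.41 and -0.97. GATA3, an epithelial transcription factor, fell by 1.42 with averages of -0.88 and -0.53. STC1, a secreted glycoprotein, fell by 1.52 with averages of -0.46 and -1.06. Under OLR1 siRNA the UV-PAPC difference did not pass in limma for ITGB6 (-0.23, adjusted p = 0.112), KIF3A (-0.22, 0.17) and STC1 (-0.15, 0.331). Under scramble siRNA it passed for each of them, at -0.51, -0.61 and -0.76. For TNFSF15 and GATA3 it passed under both siRNAs.

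Cancellation was seen over a wide range of sizes. Among the 476 genes that UV-PAPC lowered and OLR1 siRNA raised, 405 did not pass the threshold in the combined comparison, 50 were higher and 21 lower, and the median combined log2 fold change was 0.02 against -0.014 over all genes tested. Among the 197 genes with the opposite signs, 150 did not pass, 29 were higher and 18 lower, with a median of 0.01. Not passing is not evidence that these genes were equal in the 2 groups: the median half-width of the 95% interval of a combined difference was 0.17.

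FST, the activin-binding protein follistatin, had the largest value among the genes named for the smaller of its 2 opposing effects. Its log2 signal was 7.55, 7.43 and 7.62 at baseline, 6.30, 6.52 and 6.34 with UV-PAPC alone, 8.56, 8.38 and 8.10 with OLR1 siRNA alone and 7.28, 7.46 and 7.68 in the combined group. The baseline and combined arrays overlapped, while UV-PAPC alone lay below and OLR1 siRNA alone above both. The averages were -1.01 and 0.95, and the combined difference was -0.06 (SE 0.12, limma adjusted p = 0.802).

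TLR4, a receptor of innate immunity that also responds to oxidised lipids, led the genes that UV-PAPC raised and OLR1 siRNA lowered. Its signal was 7.61, 7.50 and 7.52 at baseline, 8.60, 8.45 and 7.98 with UV-PAPC alone, 6.91, 6.81 and 6.94 with OLR1 siRNA alone and 7.81, 7.55 and 7.66 in the combined group, where it overlapped the baseline. The averages of 0.79 and -0.66 left a combined difference of 0.13 (SE 0.12, limma adjusted p = 0.538). CAP2, an actin-binding protein, had averages of 0.63 and -0.55 and a combined difference of 0.09 that did not pass. EPGN, an EGF receptor ligand, had averages of 0.66 and -1.04, and its combined log2 fold change of -0.39 (limma adjusted p = 0.0302) lost its call in 6 of the alternative settings, among them those without the first or the third baseline array or the second combined array (adjusted p from 0.0779 to 0.11 in these 3). Without the second combined array its value was -0.197. DNAJB6, a co-chaperone, fell by 0.34 with averages of 0.58 and -0.92, but its probe sets disagreed, and the mean of its probe sets gave -0.121.

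HSPA6, an inducible member of the Hsp70 family, belongs by sign to the same class, and here one effect far outweighed the other. Its signal was 7.04, 6.97 and 7.35 at baseline, 11.45, 11.30 and 11.20 with UV-PAPC alone, 6.60, 6.38 and 6.29 with OLR1 siRNA alone and 11.02, 10.88 and 10.56 in the combined group. The combined rise of 3.70 (SE 0.12, 13.0-fold, limma adjusted p = 2.06e-11) was the highest of all genes called, with averages of 4.30 and -0.60. Hsp70 genes are close in sequence, so the share of HSPA6 itself in this signal is uncertain.

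Mitosis genes held the most cancelling genes of the 31 gene lists. Of 62 measured genes of G2/M and mitosis, 47 were lower in the UV-PAPC average, 57 were higher and 1 lower in the OLR1 siRNA average, and 44 (71.0%, against 3.65% of all genes) were cancelling genes. Over all genes 8.03% were lower in the UV-PAPC average, and 12.9% were higher and 10.2% lower in the OLR1 siRNA average. In the combined comparison 40.3% of the list were called, against 16.7% of all genes. The median log2 fold change was -0.28 for UV-PAPC and 0.45 for OLR1 siRNA and 0.15 for the combined comparison, against -0.006, -0.01 and -0.014 over all genes tested. In the combined comparison 23 of the 62 were higher and 2 lower (4 lower under repeated quantile normalization and under cyclic loess), so cancellation was partial for the list: of the 44 cancelling genes, 27 did not pass the threshold.

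TOP2A, the topoisomerase that untangles chromosomes before they separate, showed the pattern array by array. Its signal was 9.44, 9.35 and 9.42 at baseline, 8.53, 8.68 and 8.46 with UV-PAPC alone, 10.27, 10.37 and 10.23 with OLR1 siRNA alone and 9.64, 9.63 and 9.66 in the combined group. The 4 groups did not overlap, and the combined arrays lay 0.24 above the baseline (limma adjusted p = 0.027) with averages of -0.75 and 0.99. That call was lost in 6 alternative settings, which included leaving out the second or the third baseline array or any 1 of the 3 combined arrays (adjusted p from 0.052 to 0.106 in these 5).

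KIF23, a kinesin of the central spindle in cytokinesis, returned to its baseline range: 10.35, 10.17 and 10.17 at baseline, 9.57, 9.52 and 9.47 with UV-PAPC alone, 10.83, 10.92 and 10.86 with OLR1 siRNA alone and 10.34, 10.34 and 10.31 in the combined group, a difference of 0.10 (SE 0.068, limma adjusted p = 0.368). GAS2L3, a cytoskeletal linker of dividing cells, had averages of -0.63 and 0.76 and a combined difference of 0.14 that did not pass. CCNB1, the cyclin of mitotic entry, had averages of -0.65 and 0.62 and a combined difference of -0.03. In KIF20A, another cytokinesis kinesin, the OLR1 siRNA average of 1.11 exceeded the UV-PAPC average of -0.65, and the combined group was higher by 0.46 (SE 0.10, limma adjusted p = 0.0056). CDK1, the kinase that drives mitosis, rose by 0.72 from 7.28, 7.08 and 7.18 to 7.92, 7.79 and 7.99, and HMMR, a spindle protein, by 0.80 from 7.83, 7.56 and 7.74 to 8.52, 8.50 and 8.52. MKI67, the proliferation marker Ki-67, rose by 0.27. PBK, a mitotic kinase, was one of the 2 lower genes at -0.70, and the other was CKAP2 at -0.34.

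**Figure D3:**
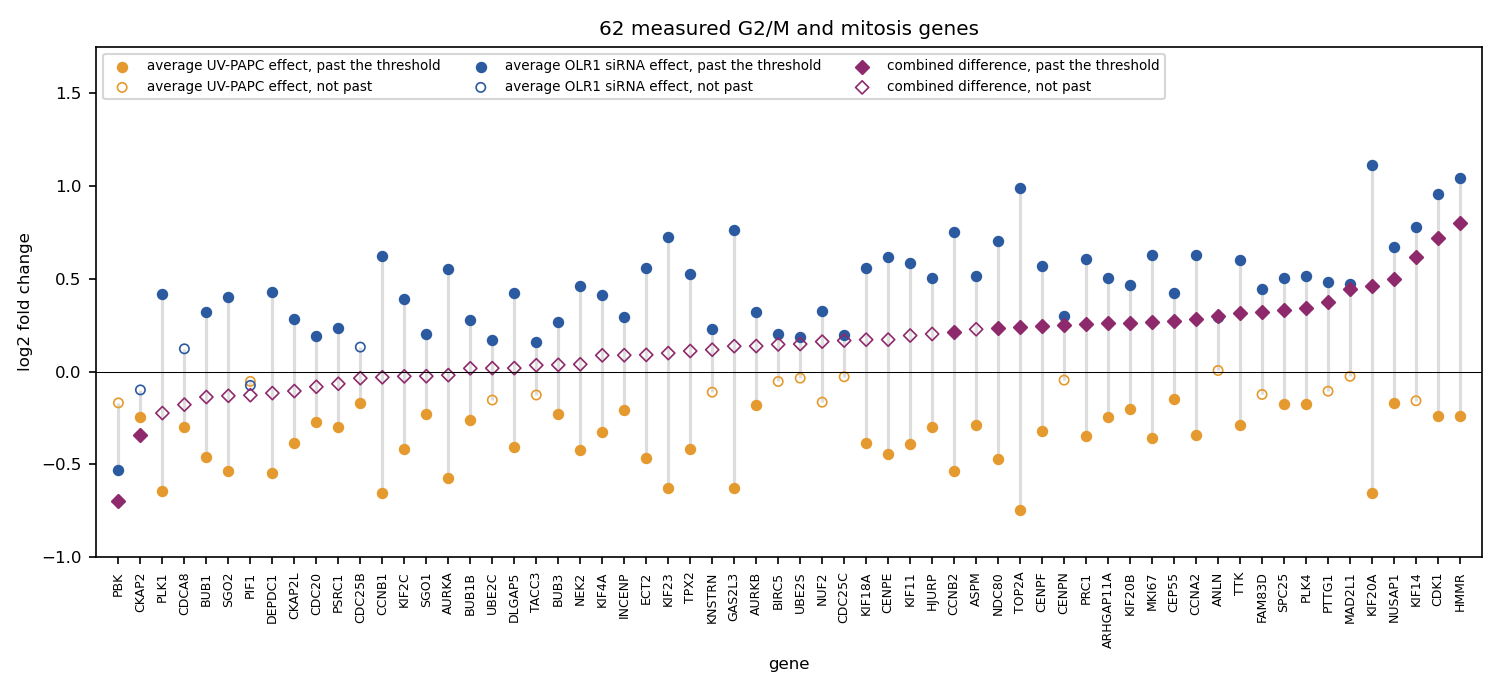
The 62 measured G2/M and mitosis genes in order of their combined log2 fold change (diamonds), with the average UV-PAPC effect and the average OLR1 siRNA effect (circles). Filled symbols passed an adjusted p of 0.05 and open symbols did not. Most UV-PAPC symbols lie below 0 and most OLR1 siRNA symbols above it, and the diamonds run from -0.70 in PBK to 0.80 in HMMR.

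The promoters of TOP2A and KIF23 are shown because their genes carry the cancelling pattern and because mitosis genes are known to share a cell cycle homology region, the element bound by the DREAM complex and by MuvB with B-MYB. The element was searched as TTTGAA or TTCGAA on either strand in the 250 bases before the first start listed for each gene by RefSeq on GRCh38.p14, and capitals mark each match. TOP2A lies on the minus strand (chr17:40417897-40418146), with matches that begin 194 and 151 bases before the start. KIF23 lies on the plus strand (chr15:69414099-69414348), with 1 match that begins 55 bases before it.
TOP2A: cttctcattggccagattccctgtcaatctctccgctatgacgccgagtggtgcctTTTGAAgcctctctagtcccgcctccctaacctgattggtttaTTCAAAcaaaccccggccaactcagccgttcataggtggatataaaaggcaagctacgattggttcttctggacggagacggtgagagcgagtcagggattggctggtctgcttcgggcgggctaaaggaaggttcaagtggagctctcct
KIF23: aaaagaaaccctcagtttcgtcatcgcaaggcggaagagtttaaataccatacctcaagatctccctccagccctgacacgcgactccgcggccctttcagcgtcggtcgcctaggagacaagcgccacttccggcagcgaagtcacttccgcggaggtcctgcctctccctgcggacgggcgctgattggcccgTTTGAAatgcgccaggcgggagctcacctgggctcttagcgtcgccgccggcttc

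Of the 62 mitosis genes, 54 had a promoter in the table, and 26 of these held a match (48.1%), against 11.8% of the 14239 promoters of genes tested. Among the cancelling members 23 of 40 held one (57.5%), and among the other members 3 of 14 (21.4%). The windows of KIF20A and GAS2L3, which also cancelled, held no match to these letters. Over all 476 genes lowered by UV-PAPC and raised by OLR1 siRNA, 78 of 385 promoters held a match (20.3%). The share was similar among adding genes with higher signal, 29 of 151 (19.2%), so it was not particular to cancelling genes. It was 20 of 162 (12.3%) for genes with UV-PAPC higher and OLR1 siRNA lower. Adding genes with lower signal had 14 of 158 (8.86%). These are counts of letters and not of bound sites.

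Of 43 measured genes of G1/S and DNA replication, 13 (30.2%, against 3.65% of all genes) were cancelling genes. In the combined comparison 17 were higher and 2 lower (44.2% called, against 16.7% of all genes), with medians of -0.12 for UV-PAPC, 0.29 for OLR1 siRNA and 0.19 combined. The 17 higher fell to 10 without the second or the third baseline array, to 9 without the first combined array and to 11 without the third. CCNE2, a cyclin of S phase entry, had averages of -0.52 and 0.96 and a combined rise of 0.44, and CLSPN, a checkpoint adaptor, rose by 0.45. Both lower genes went against the list: cyclin D1 (CCND1), which acts in G1, was an adding gene that fell by 0.80 from 10.70, 10.64 and 10.68 to 9.85, 9.86 and 9.91, and the repressor E2F8 fell by 0.43 with averages of -0.81 and 0.38.

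The heat shock response, mostly chaperones, was the list with the highest share of members called (96.0%, against 16.7% of all genes). Of 25 measured, 23 were higher and 1, DNAJB6, lower in the combined comparison. CRYAB, at -0.02, did not pass. The combined median was 0.76, which equalled the UV-PAPC median, and the OLR1 siRNA median was -0.02. ZFAND2A, a stress-induced partner of the proteasome, rose by 2.45 and DNAJB1, an Hsp70 partner, by 2.01. Each had an OLR1 siRNA average below 0 that passed (-0.34 and -0.32). Taken singly, the OLR1 siRNA difference of ZFAND2A did not pass in limma without the lipid (adjusted p = 0.382) or with it (0.0742). That of DNAJB1 passed in limma without the lipid (adjusted p = 0.0412) and not with it (0.0592). BAG3, a co-chaperone of Hsp70, rose by 1.37, HSPA4L, an Hsp110 relative, by 1.24 and HSPH1, an Hsp110 chaperone, by 1.20. By sign 7 of the 25 were cancelling genes (28%, against 3.65% of all genes), or 11 under repeated quantile normalization and under cyclic loess. HSPE1, a mitochondrial chaperonin, was an adding gene at 0.80.

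The promoter of HSPA6 is shown because this gene gave the highest combined rise. A heat shock element was searched as 3 units, GAA and TTC in turn, with 2 bases between neighbouring units, on either strand of the same 250 bases. HSPA6 lies on the plus strand of GRCh38.p14 (chr1:161524290-161524539), and the 1 match, in capitals, begins 74 bases before the start.
HSPA6: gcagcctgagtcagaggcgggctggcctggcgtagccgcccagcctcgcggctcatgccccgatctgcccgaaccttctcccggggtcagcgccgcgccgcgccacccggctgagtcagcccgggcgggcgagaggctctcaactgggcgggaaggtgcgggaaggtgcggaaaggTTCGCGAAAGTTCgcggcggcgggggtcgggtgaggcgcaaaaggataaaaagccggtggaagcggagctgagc

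Of the heat shock genes, 23 had a promoter in the table and 5 of these held a match (21.7%), against 52 of 14239 (0.365%) among genes tested and 0 of 54 among mitosis genes. Among the 218 adding genes with lower signal, 0 of 158 promoters held one, and adding genes with higher signal had 4 of 151 (2.65%). Cancelling genes had 4 of 162 (2.47%) with UV-PAPC higher and 0 of 385 with UV-PAPC lower. With a share of 0.365% among genes tested, counts of 0 in sets of these sizes, the mitosis genes included, say little.

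NRF2 targets serve glutathione synthesis, redox balance and detoxification. Of 41 measured, 21 were higher and 2 lower (56.1% called, against 16.7% of all genes), with medians of 0.26 combined, 0.29 for UV-PAPC and 0.00 for OLR1 siRNA. Within the list the 2 effects met in different ways. Adding genes made up 14.6% of it and cancelling genes 17.1%, against 2.24% and 3.65% of all genes. HMOX1, GCLC, its regulatory subunit GCLM (1.03), the thioredoxin reductase gene TXNRD1 (1.20), the transporter ABCC2 (0.68) and the peroxiredoxin PRDX1 (0.35) were adding genes. SLC7A11, the cystine transporter, was a cancelling gene by sign: its signal of 8.11, 7.98 and 8.10 at baseline became 10.38, 10.23 and 10.18 with UV-PAPC alone, 7.42, 7.42 and 7.64 with OLR1 siRNA alone and 10.21, 10.02 and 9.99 in the combined group, a rise of 2.01. OLR1 siRNA alone lay below the baseline, and the combined arrays overlapped those of UV-PAPC alone. The 6 adding members became 3 under repeated quantile normalization and under cyclic loess, and the 7 cancelling ones became 4 without the third baseline array, without the second array of OLR1 siRNA alone and with arrays centred on their medians. AKR1C3 rose by 1.04, but its family is close in sequence, and SRXN1, which repairs peroxiredoxins, rose by 1.54. The 2 lower genes were IDH1 at -0.41 and SLC6A9 at -0.33; without the third baseline array 1 was lower.

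Proteasome subunits differed by small amounts. Of 29 measured, 14 were higher and 0 lower in the combined comparison in limma (48.3% called, against 16.7% of all genes), and 21 and 0 at an unadjusted p under 0.05. The median was 0.22. Each single average had 8 of the 29 past the threshold, against 14.0% of all genes for UV-PAPC and 23.0% for OLR1 siRNA. PSMC6, an ATPase of the regulatory particle, was an adding gene and rose by 0.78, from 7.45, 7.54 and 7.49 to 8.38, 8.17 and 8.29. The 14 became 8 without the third baseline array and 7 without the first combined array.

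**Figure D4:**
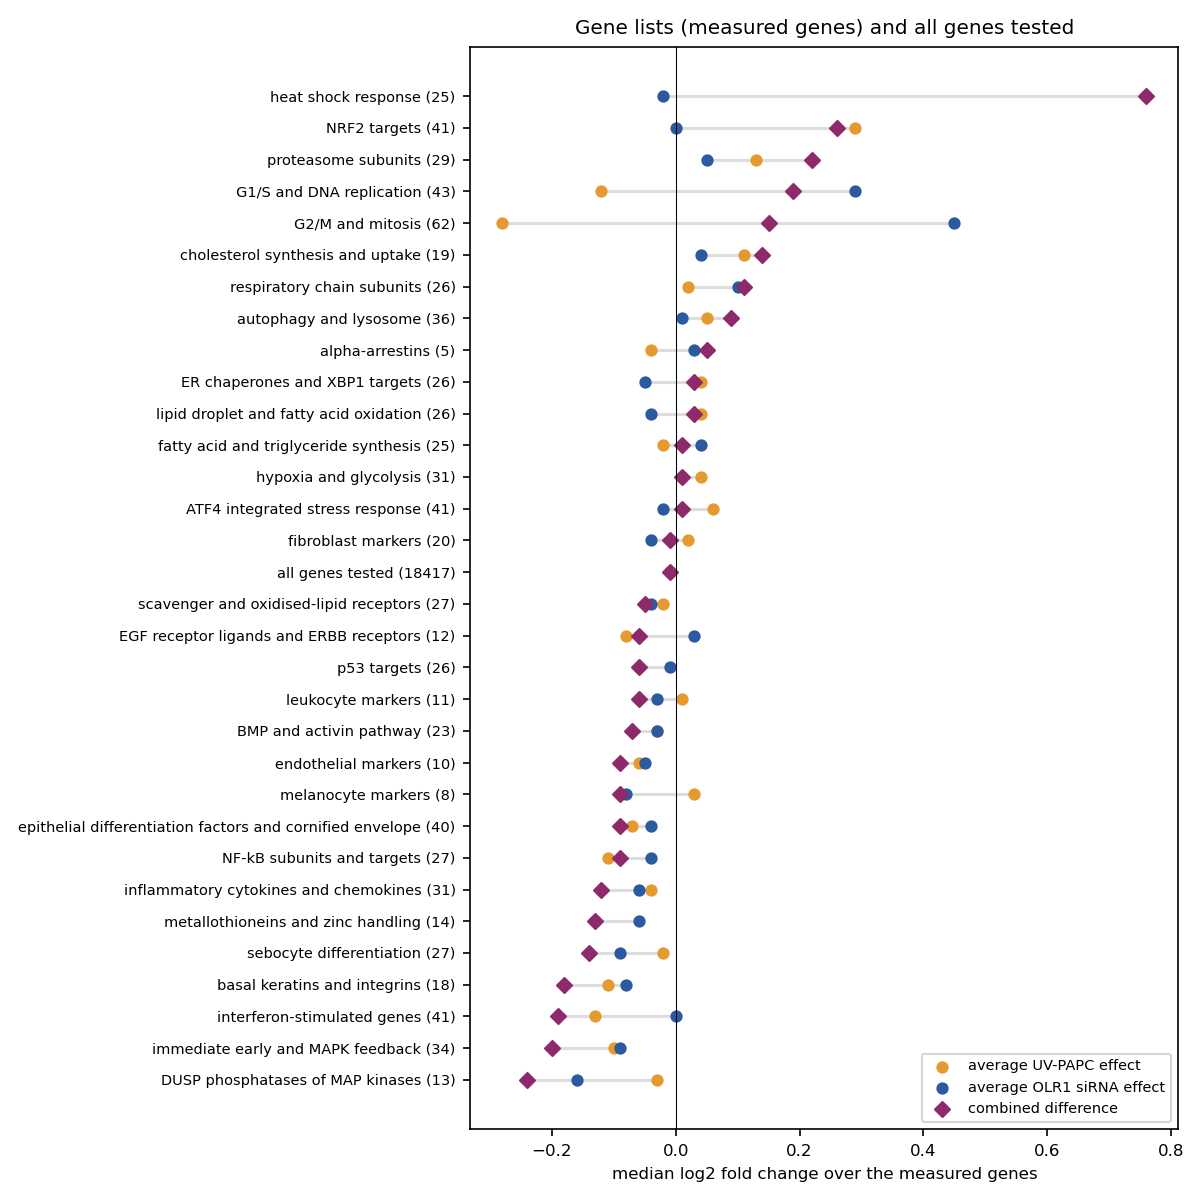
Median log2 fold change over the measured genes of each of 31 gene lists, with the number of measured genes in brackets, and over all genes tested, for the average UV-PAPC effect, the average OLR1 siRNA effect (circles) and the combined comparison (diamonds). For mitosis genes the circles lie on opposite sides of 0 at -0.28 and 0.45 with the diamond between them at 0.15, and for the heat shock list the diamond lies on the UV-PAPC circle at 0.76.

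Among feedback genes of MAP kinase signalling, 5 of 13 measured DUSP genes were lower and 1 higher (46.2% called, against 16.7% of all genes), with a combined median of -0.24. DUSP7, a phosphatase of ERK, fell by 1.04 from 9.02, 9.02 and 9.23 to 8.10, 7.92 and 8.12, and DUSP6, also a phosphatase of ERK, by 0.80 from 7.41, 7.50 and 7.54 to 6.74, 6.64 and 6.68; with DUSP10 these were the 3 adding members. DUSP16 and DUSP4 fell by 0.38 and 0.53. DUSP1, an early stress-induced phosphatase, was the higher one at 0.66, with averages of 1.02 and -0.36 in opposite directions; without the third array of UV-PAPC alone 2 members were higher. Of 34 immediate early and feedback genes 15 were lower and 3 higher (52.9% called), with a median of -0.20. KLF6, a zinc finger transcription factor, fell by 1.20, IER3 by 0.73 and EGR3 by 0.71, all adding genes, while EGR1 and JUNB fell by 0.67 and 0.70 with OLR1 siRNA averages of -0.08 and 0.00 that did not pass.

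Inflammatory genes were mostly lower where they passed. Of 31 cytokines and chemokines 9 were lower and 0 higher in limma (29% called, against 16.7% of all genes), and 12 and 0 at an unadjusted p under 0.05. IL1A, interleukin-1 alpha, fell by 0.76 and the neutrophil chemokine CXCL1 by 0.44 as adding genes. IL24 and LIF, cytokines of the IL-10 and IL-6 families, fell by 0.82 and 0.80, and their OLR1 siRNA averages of 0.09 and 0.13 did not pass. Of 27 NF-kB subunits and targets 10 were lower and 1, TNIP3, higher (40.7% called). The lower ones were led by the inhibitor TNFAIP3 at -0.99, the protease PLAU at -0.99 and the protease MMP9 at -0.98, all adding genes. NFKB1 itself was a cancelling gene with averages of -0.42 and 0.57 and a combined difference of 0.15 that did not pass. Of 41 interferon-stimulated genes 14 were lower, among them IFIT2 at -1.0, the RNA sensor gene RIGI at -0.80 and IFIT3 at -0.75, and 2 were higher, IFI44 and HERC5 (39% called). The calls of TNIP3, IFI44 and HERC5 were each lost without the third baseline array, the first combined array or the third combined array.

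EGF receptor ligands were split. EREG, epiregulin, was an adding gene that fell by 1.0 from 8.45, 8.17 and 8.30 to 7.32, 7.33 and 7.25, while EPGN cancelled as above. HBEGF, another ligand, had averages of 0.41 and -0.30 and a combined difference of 0.11, and the receptor ERBB3 had averages of -0.40 and 0.34 and a combined difference of -0.06; neither passed. Among genes of the BMP and activin pathway, the BMP antagonist NOG fell by 1.11 from 8.31, 8.25 and 8.49 to 7.25, 7.29 and 7.19, and its values with UV-PAPC alone (7.19, 7.18 and 7.29) covered the same range. The ligand BMP4 rose by 0.69 with an OLR1 siRNA average of -0.03 that did not pass.

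Among epithelial genes, of 40 differentiation factors and cornified envelope genes 13 were lower and 2 higher (37.5% called, against 16.7% of all genes). The 8 adding genes among them became 5 without the first or the third baseline array, the third array of UV-PAPC alone, the third array of OLR1 siRNA alone or the first combined array. NECTIN4, an adhesion molecule, fell by 1.31 from 7.04, 6.85 and 7.0 to 5.55, 5.72 and 5.71, and the differentiation factors GRHL3 and ZNF750 fell by 1.16 and 1.08. CLDN1, a tight junction protein, fell by 1.06 with the OLR1 siRNA average alone (-1.09 against 0.03 for UV-PAPC). Of 18 basal keratins and integrins 7 were lower, ITGB6 and ITGA2 (-0.77) among them, and 1 was higher (44.4% called). Of the 27 sebocyte genes 7 were lower and 2 higher, PLIN2 and MGST1 (33.3% called). SOX9, a progenitor factor, fell by 0.84, the steroid enzyme HSD3B1 by 0.86 and PPARG, the receptor that drives sebocyte lipogenesis, by 0.38. The lipid droplet protein PLIN2 rose by 0.45, and that call was lost without the second or the third baseline array or the first or the third combined array. Of 19 genes of cholesterol synthesis and uptake 6 were higher and 0 lower in limma (31.6% called), and 7 and 1 at an unadjusted p under 0.05, with HMGCS1 (0.51) and IDI1 (0.57) as adding genes.

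The test of whether the joint effect differs from the sum of the single effects gave no call. In limma 0 of 18417 genes passed an adjusted p of 0.05 and the lowest was 0.52. An unadjusted p under 0.05 was reached by 1004 genes. Without any departure, a share of 0.05 of the genes tested would be expected there. The median half-width of the 95% interval of this departure was 0.25 on the log2 scale, so departures of that size were not detectable for most genes. That interval is not adjusted for the number of genes, and larger departures also went uncalled, such as that of STC1. Adding and cancelling as used here therefore do not show that the effects act separately. STC1 had the lowest p (6.28e-05 before adjustment): it was 8.18, 8.16 and 8.17 at baseline, 7.45, 7.38 and 7.4 with UV-PAPC alone, 6.90, 6.80 and 6.72 with OLR1 siRNA alone and 6.67, 6.81 and 6.48 in the combined group, 0.61 above the sum (95% interval 0.37 to 0.85). CTSO, a lysosomal protease, and MLLT11 had departures of 0.53 and 0.56, and LSM11, a part of histone mRNA processing, and the long non-coding RNA PRDM16-DT had departures of -0.53 and -0.54. Each of these 5 had an adjusted p of 0.52.

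Of the 218 adding genes with lower signal, 165 (75.7%) had a positive departure, meaning a joint fall smaller than the sum, against 51.6% of all genes. Their median departure was 0.08, and the share was 67.9% to 80.3% over the alternative settings and arrays left out. Over the same settings the share of all genes ran from 47.2% to 56.1%. TNFRSF11B, at 0.44 with a 95% interval from 0.13 to 0.76, UGCG at 0.43 (0.17 to 0.69), IL1B at 0.36 (0.09 to 0.63) and KIF3A at 0.40 (0.14 to 0.65) were among them, while PHLDA1, at -0.14, was not. DUSP10, at 0.21 (-0.04 to 0.47), was also among them. These intervals are not adjusted for the number of genes, and the limma adjusted p of each of these departures was at least 0.86. The share of positive departures also varied with the setting in the other 3 classes. It was 69.6% for adding genes with higher signal (56.7% to 74.2% over the settings, lowest under repeated quantile normalization), 68.0% for genes that UV-PAPC raised and OLR1 siRNA lowered (60.4% to 73.1%) and 65.5% for genes with the opposite signs (50.6% to 72.3%, lowest without the third array of UV-PAPC alone). In the main setting positive departures were thus more frequent in every class than over all genes. Among adding genes with higher signal they mean a joint rise larger than the sum, so the excess was not particular to falls. These shares are descriptions across genes, which are not independent, and were not tested.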

How the data were processed

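Gene expression in SZ95 sebocytes was measured on 12 Affymetrix arrays. The deposited values are log2 signals per probe set; per the submitters' processing notes, RMA was run in Affymetrix Expression Console (version 1.3.1.187) by the authors. The RMA settings are not stated in the labels, and RMA is known to compress large fold changes. The table had 33297 entries, 19460 with 1 gene symbol, 1754 with several and 12083 with none. Entrez numbers tied 19429 of the first kind to current symbols. Where a gene had several probe sets (769 genes), that of the highest mean signal was taken.

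The 4 group means were fitted with limma 3.58.1 (R 4.3.3; 8 residual df, 7.66 prior df), two-sided, with Benjamini-Hochberg adjustment over 18417 genes at 0.05; the fit was tested on simulated data. Matplotlib 3.10.9 drew the figures. The comparison, the 31 gene lists (877 entries, 817 measured) and the rules were chosen with earlier results of these data known. Genes named were OLR1, DUSP10, list members, the 10 highest and 10 lowest fold changes among called genes with separate groups, 5 per adding or cancelling class with the largest smaller effect and the 5 lowest p-values for departure, without small RNAs, uncharacterised loci, antisense and readthrough genes. Promoters came from RefSeq (27305 genes, GRCh38.p14).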

Additional observations from a re-analysis of the deposited data

How the results depend on the processing

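The results were recomputed with a trend and robust priors in eBayes, with array weights, over the more highly expressed genes, over averaged probe sets, after centring, quantile normalization or cyclic loess between arrays, with the replicate number as a block and with each array omitted. Every entry of the table was used for the counts over all genes alone, and the 6 compared arrays by themselves for the combined comparison alone. For the counts of called, adding and cancelling genes, 170 values stayed within 1.5 times the main count and 3 did not. Without the first combined array 1028 genes were higher in the combined comparison. With the single effects both taken against the baseline arrays, 185 genes added and 199 cancelled. That setting leaves fewer arrays in each effect, and both effects then subtract the same 3 baseline arrays. The cause of the lower counts was not tested. With 1 array left out, the combined calls numbered 2151 to 3324 (1028 to 1739 higher, 1123 to 1585 lower), the adding genes 316 to 397, the cancelling genes 508 to 683 and the departures 0. Centring the arrays made 58.8% of the combined calls higher, against 51.4%. Same-numbered arrays of different groups correlated at -0.221 to 0.263 in their deviations, other pairs at -0.26 to 0.266, and 3 of 12 arrays correlated best with their own number. Between the compared groups the same-numbered pairs lay at 0.049 to 0.263. With 3 arrays per group these values cannot decide whether the numbers pair the arrays. With the replicate block 3078 genes were called, 2920 of them shared. Signs turned only in values near 0, among the genes named: with each array omitted the combined difference ranged from -0.159 to 0.0397 for FST, -0.0839 to 0.0522 for LSM11, -0.0581 to 0.00703 for CCNB1 and -0.0836 to 0.0383 for CRYAB, and it was 0.00546 for FST with array weights and 0.00865 for LSM11 with cyclic loess; the cause was not tested. The departure signs per class were added after seeing the data and were not run on the highly expressed genes alone.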

Other observations

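Of 41 ATF4 targets 9 were higher and 4 lower in the combined comparison (31.7% called, against 16.7% of all genes). CTH, an enzyme of cysteine synthesis, and MTHFD2, a mitochondrial folate enzyme, rose by 0.90 and 0.56 as adding genes, while TRIB3 and CHAC1 had UV-PAPC averages of 0.25 and 0.27, OLR1 siRNA averages of -0.42 and -0.50 and combined differences of -0.17 and -0.23 that did not pass. Of 36 autophagy and lysosome genes 8 were higher and 2 lower (27.8% called), and 5 were higher without the second baseline array or the first combined array. GABARAPL1, a relative of the autophagosome protein LC3, rose by 1.15, SQSTM1 by 0.60 and the lysosomal cholesterol carrier NPC1 by 0.52, and the lysosomal membrane protein LAMP2 fell by 0.51.

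Among 26 genes of lipid droplets and fatty acid oxidation, the acyl-CoA synthetase ACSL1 fell by 0.64 with averages of 0.23 for UV-PAPC and -0.86 for OLR1 siRNA, and the elongase ELOVL7, of the fatty acid synthesis list, fell by 0.75 with averages of -0.01 and -0.73. Of 27 scavenger and oxidised-lipid receptors 4 were lower, the siRNA target OLR1 included, and 1 higher, which is 18.5% called against 16.7% of all genes; TLR6 fell by 0.58 and the prostaglandin E2 receptor PTGER4, an adding gene, by 0.63.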
